A study of Mus musculus with 6 samples.

Results

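The CDK inhibitors of the Cip/Kip family (Cdkn1a, Cdkn1b and Cdkn1c) and of the Ink4 family (Cdkn2a, Cdkn2b, Cdkn2c and Cdkn2d) were examined in satellite cells (SCs) from mice with an induced deletion of Nfya, the NF-YA gene. The 7 genes, out of 35976 in the gene tables, were chosen by family membership, with earlier results of these data known. All of their 17 transcripts, out of 106521 in the transcript tables, were taken with them. The series holds 6 RNA-seq libraries of SCs from mouse hindlimb muscle, 3 from NF-YAcKO and 3 from NF-YAfl/fl mice. NF-YAcKO mice carry floxed Nfya alleles and Pax7-CreERT2, a tamoxifen-activated Cre driven by Pax7, the SC gene, whereas NF-YAfl/fl mice carry the floxed alleles without Cre. Mice of both genotypes received tamoxifen (20 mg/ml stock), and the labels give an age of 5 to 7 weeks for all of them. The cells had been depleted of blood, endothelial and Sca1-expressing cells with magnetic beads, and were grown on Matrigel in growth medium before RNA was collected.

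Progression through the cell cycle is driven by cyclin-dependent kinases (CDKs), and the inhibitor proteins hold it back in different ways. Cip/Kip proteins bind cyclin-CDK complexes broadly, while Ink4 proteins bind the D-type cyclin partners CDK4 and CDK6, and both keep the retinoblastoma protein active as a repressor of S phase genes. In the myogenic lineage the Cip/Kip members encoded by Cdkn1a and Cdkn1c are known for their part in the cell cycle exit that comes with differentiation. NF-Y, the trimer that needs NF-YA to bind DNA, recognizes the CCAAT box of promoters.

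Total expected counts were between 26936230 and 41118984 per library. The transcript entry of the deleted Nfya allele took 22.3% to 34.2% of the Nfya expected counts in NF-YAcKO libraries and 0 in NF-YAfl/fl libraries. The other Nfya entries remained at 17.8 to 21.0 CPM in NF-YAcKO, against 23.4 to 36.9 CPM in NF-YAfl/fl, where CPM is the count relative to library size, so that Nfya RNA outside the deleted-allele entry was still measured. The 10 markers of satellite cells and myoblasts summed to 712 to 820.5 TPM in NF-YAcKO and 1174 to 1483 TPM in NF-YAfl/fl. Of these, 8 were tested, 4 with a log2 fold change above 0 and 4 below (median 0.36). The 2 called were Cdh15 (log2 fold change -1.78) and Des (-2.09), both lower. Pax7 (0.94), Vcam1 (0.86), Sdc4 (0.80), Myf5 (0.80), Myod1 (-0.08) and Itga7 (-1.25) were not called. Des alone was at 104 to 141 TPM in NF-YAcKO and 460 to 590 TPM in NF-YAfl/fl. Pax7 (15.9 to 42.8 TPM) and Myod1 (240 to 632 TPM) were above 0 in every library, whereas Msc and Chodl stayed at or below 0.15 TPM, and Chodl was at 0 in an NF-YAfl/fl library. The 18 markers of differentiated muscle were all called lower in NF-YAcKO, with a summed level of 58.0 to 135 TPM against 6550.1 to 11431 TPM in NF-YAfl/fl. The 10 macrophage markers summed to 155 to 296 TPM in NF-YAcKO and to 4.17 to 17.9 TPM in NF-YAfl/fl, where Ptprc and C1qb were at 0 in a library, and 9 of them were called higher. The 8 markers of fibro-adipogenic progenitors summed to 264 to 383 TPM in NF-YAcKO, but to 71.3 TPM in the lowest and 473 TPM in the highest NF-YAfl/fl library. Among them Dpp4 (log2 fold change 1.72) and Lum (2.98) were called higher and none was called lower. Yet 4 of the 8 had a log2 fold change below 0 and 4 above (median 0.185), and Ly6a was at -2.05 (FDR = 0.0590). Although the study's methods describe male mice, Xist was at 45.5 to 54.5 TPM in NF-YAcKO and at 0.02 to 0.03 TPM in NF-YAfl/fl. Ddx3y, Kdm5d, Uty and Eif2s3y, the Y-linked markers, were at most at 0.10 TPM in NF-YAcKO and at 7.16 to 35.5 TPM in NF-YAfl/fl. Genotype and sex, as read from these markers, therefore cannot be told apart for any gene compared here. Schwann cell markers summed to 11.8 to 14.4 TPM in NF-YAcKO and to 3.17 to 4.65 TPM in NF-YAfl/fl. Endothelial markers summed to 3.86 to 4.87 TPM in NF-YAcKO and to 1.07 to 3.36 TPM in NF-YAfl/fl. Pericyte and smooth muscle markers summed to 382 to 568 TPM in NF-YAcKO and to 1046 to 1277 TPM in NF-YAfl/fl. Most of this sum was Acta2, at 361 to 547 TPM in NF-YAcKO and 1022 to 1203 TPM in NF-YAfl/fl. Of the 6 tested, Acta2 (log2 fold change -1.20) and Abcc9 (-5.52) were called lower, while Cspg4 (-0.31) and Myh11 (0.76) overlapped between the genotypes. The summed markers of every list thus separated the genotypes, as Cdkn1a and Cdkn1c did, except the fibro-adipogenic sum, which overlapped. A sum is led by its most abundant genes, such as Acta2, so its separation does not hold for each marker. The part of these markers in the results was not tested. In bulk RNA, fewer cells of a type and less RNA per cell cannot be told apart.

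Of the 7 inhibitor genes, Cdkn1a and Cdkn1c were lower in NF-YAcKO, and the other 5 did not pass the test. All 7 genes had more than 10 counts in at least 2 libraries and were tested. Calls needed an FDR under 0.01 and a change past 1 or -1 on the log2 scale, in the quasi-likelihood test of edgeR over 17348 genes, by which 7.67% of the tested genes were lower and 4.65% were higher in NF-YAcKO. No inhibitor gene was called higher by edgeR or by DESeq2, and 3 of the 7 had an unadjusted p under 0.05, as had 48.7% of all tested genes. The median log2 fold change of the 7 genes was -0.24, beside -0.02 over all tested genes. The genotypes did not overlap for 5 of the 7 genes, and 55.3% of all tested genes showed no overlap either, so that separation alone does not set the inhibitors apart.

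**Figure D1:**
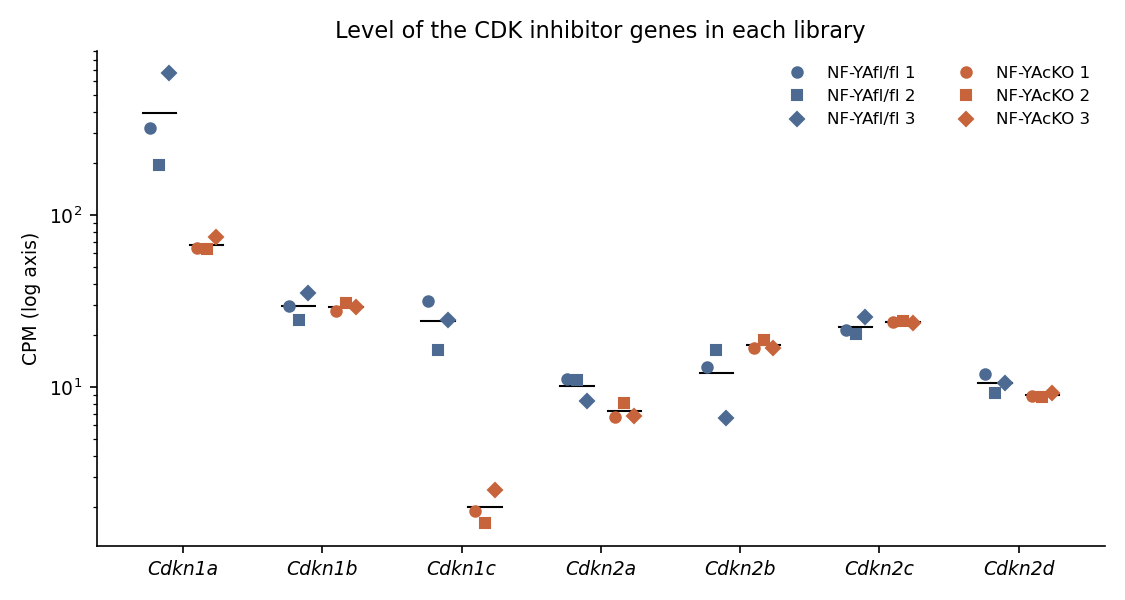
CPM (counts relative to library size after TMM normalization, logarithmic axis) of the 7 CDK inhibitor genes, with a point for each library, blue for NF-YAfl/fl and orange for NF-YAcKO, and a line at the mean of 3 libraries. Cdkn1a lies between 195 and 668 CPM in NF-YAfl/fl and between 63.2 and 74.4 CPM in NF-YAcKO, and Cdkn1c between 16.5 and 31.8 against 1.62 and 2.51 CPM, while Cdkn1b and Cdkn2c overlap.

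Cdkn1a (chr17:29090979-29100722, GRCm38, plus strand) encodes p21, the inhibitor induced by p53 and by the myogenic program. Its level was 64.6, 63.2 and 74.4 CPM in NF-YAcKO replicates 1 to 3 and 320.2, 195 and 668 CPM in NF-YAfl/fl replicates 1 to 3. The NF-YAfl/fl libraries were all above the NF-YAcKO ones, and they were spread over a 3.43-fold range, against 1.18-fold within NF-YAcKO. The level was 5.85-fold lower in NF-YAcKO (log2 fold change -2.55, standard error (SE) 0.43, FDR = 0.00465). Without NF-YAfl/fl replicate 3, the highest library, the level was 3.83-fold lower and still called (log2 fold change -1.94, FDR = 0.00058). The call was lost when any NF-YAcKO library or NF-YAfl/fl replicate 1 was left out (FDR 0.0151 to 0.0269, log2 fold change -2.68 to -2.53), and when changes were tested against a minimum of 1 on the log2 scale (FDR = 0.0324).

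Both annotated start sites of Cdkn1a were present among its transcripts. NM_007669.5 starts at 29093769 and NM_001111099.2 at 29090979, and their coding sequence in exons 2 and 3 is the same. NM_007669.5 was at 57.2, 54.3 and 62.1 CPM in NF-YAcKO and at 303, 179 and 623 CPM in NF-YAfl/fl (log2 fold change -2.67, SE 0.47, FDR = 0.0259). NM_001111099.2 was at 7.87, 9.81 and 13.3 CPM in NF-YAcKO and at 17.5, 14.9 and 27.2 CPM in NF-YAfl/fl (log2 fold change -0.94, SE 0.31, FDR = 0.138). Neither passed the threshold, and the genotypes did not overlap for either. The form from the upstream start held 14.8% ± 2.76 of the Cdkn1a TPM in NF-YAcKO and 5.68% ± 1.74 in NF-YAfl/fl (SD, n = 3). The shares were 11.9%, 15.1% and 17.4% in NF-YAcKO and 5.36%, 7.55% and 4.12% in NF-YAfl/fl (p = 0.1 in a two-sided exact permutation test, which cannot go lower with 3 against 3 libraries).

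The sequences before both Cdkn1a start sites are shown because transcripts from both were measured with unequal log2 fold changes, a difference that was not tested. They are the 250 bases upstream (RefSeq, GRCm38.p6, plus strand), chr17:29090729-29090978 for the distal and chr17:29093519-29093768 for the proximal start, with a match to the searched p53 response element in capitals.
Cdkn1a distal start: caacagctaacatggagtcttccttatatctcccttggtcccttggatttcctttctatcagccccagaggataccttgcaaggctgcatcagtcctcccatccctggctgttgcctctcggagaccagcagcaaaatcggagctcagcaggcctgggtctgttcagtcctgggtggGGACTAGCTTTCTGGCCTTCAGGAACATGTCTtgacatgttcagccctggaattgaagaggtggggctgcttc
Cdkn1a proximal start: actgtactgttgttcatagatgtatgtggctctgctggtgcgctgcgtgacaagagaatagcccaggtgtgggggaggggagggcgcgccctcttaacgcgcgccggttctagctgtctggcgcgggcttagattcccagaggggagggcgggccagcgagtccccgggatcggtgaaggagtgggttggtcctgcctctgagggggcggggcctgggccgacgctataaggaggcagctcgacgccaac
The element was searched as 2 copies of its core at most 13 bases apart, and in the distal window the matched copies are 12 bases apart. The capitals mark only this match, and an imperfect copy of the core directly after it is left in lower case. A match was found in 0.0731% of the 32851 promoter windows of 300 bases (250 before the start and 50 after). Among the 9 windows of the inhibitor genes a match was found in this one. Neither Cdkn1a window holds a CCAAT box on either strand, and the distal window holds 1 copy of the E-box CAGCTG, a sequence found in 16.3% of all windows.

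Cdkn1b (chr6:134920401-134925525, plus strand) encodes p27, an inhibitor regulated largely by protein turnover. Its level was 27.8, 30.8 and 29.1 CPM in NF-YAcKO and 29.4, 24.4 and 35.1 CPM in NF-YAfl/fl. The NF-YAcKO values lay within the NF-YAfl/fl range, and the log2 fold change was -0.02 (SE 0.15, FDR = 0.928). The single transcript in the files, NM_009875.4, had a log2 fold change of 0.01 (SE 0.15, FDR = 0.978). Its promoter is shown since it holds the most CCAAT boxes among the 6 inhibitor genes with a promoter entry, which leave out Cdkn1c. The boxes are in capitals in the 250 bases upstream of the start (chr6:134920151-134920400, plus strand).
Cdkn1b: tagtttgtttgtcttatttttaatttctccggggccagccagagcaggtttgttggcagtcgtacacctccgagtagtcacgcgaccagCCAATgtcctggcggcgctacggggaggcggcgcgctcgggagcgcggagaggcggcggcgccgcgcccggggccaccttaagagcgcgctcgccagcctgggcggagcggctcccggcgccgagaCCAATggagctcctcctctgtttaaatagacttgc
With the start site counted as 0, the boxes begin at -161 and -35, and another lies on the opposite strand at 45, in the window of 17 bases chr6:134920434-134920450.
Cdkn1b after the start: ttccaccgccatATTGG
CCAAT was searched on both strands, with ATTGG as its complement. At least 1 box was present in 37.4% of all windows and at least 3 in 3.37%. Of the 6 inhibitor genes with a promoter entry, Cdkn1b had 3 boxes, and Cdkn2d had 1 at -220, on the opposite strand. Cdkn2a and Cdkn2c had 1 each at the downstream of their 2 start sites, and Cdkn2b and Cdkn1a had none.

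Cdkn1c (chr7:143458339-143461059) encodes p57, an imprinted Cip/Kip inhibitor expressed in differentiating muscle. Its level was 1.91, 1.62 and 2.51 CPM in NF-YAcKO and 31.8, 16.5 and 24.4 CPM in NF-YAfl/fl. Every NF-YAfl/fl library was above the highest NF-YAcKO library (log2 fold change -3.58, SE 0.30, FDR = 0.000422). The call was kept in each of the 16 alternative settings (log2 fold change -3.81 to -2.85).

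Cdkn1c had 7 transcripts in the files, of which 5 were tested. NM_009876.4 was the most abundant in NF-YAfl/fl, at 19.6, 8.55 and 14.1 CPM against 1.93, 0.735 and 0.906 CPM in NF-YAcKO (log2 fold change -3.57, SE 0.53, FDR = 0.0178). XM_006508470.3 was at 5.09, 3.65 and 3.20 CPM in NF-YAfl/fl and had 0 counts in all NF-YAcKO libraries, at least 49.2-fold lower against a floor of 3 counts in each library (FDR = 0.0108). XM_006508467.3 was at 4.78, 2.82 and 5.35 CPM in NF-YAfl/fl, and was above 0 in NF-YAcKO replicate 2 only, at 0.515 CPM (FDR = 0.189). The log2 fold changes of these forms had the sign of the gene, without passing the threshold. XM_006508469.3 was at 1.27, 0.95 and 0 TPM in NF-YAfl/fl and at most at 0.15 TPM in NF-YAcKO (FDR = 0.451), and NM_001161624.1 was above 0 in replicate 3 of each genotype only, at 0.49 TPM in NF-YAcKO and 0.60 TPM in NF-YAfl/fl (FDR = 0.956). XM_006508468.3 and XM_006508471.3 were not tested and stayed at or below 0.22 and 0.52 TPM. Since gene counts in NF-YAcKO were 60 to 107 expected counts, the split over forms there rests on few reads, and NM_009876.4 took from 35.7% to 100% of the Cdkn1c TPM in NF-YAcKO libraries.

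**Figure D2:**
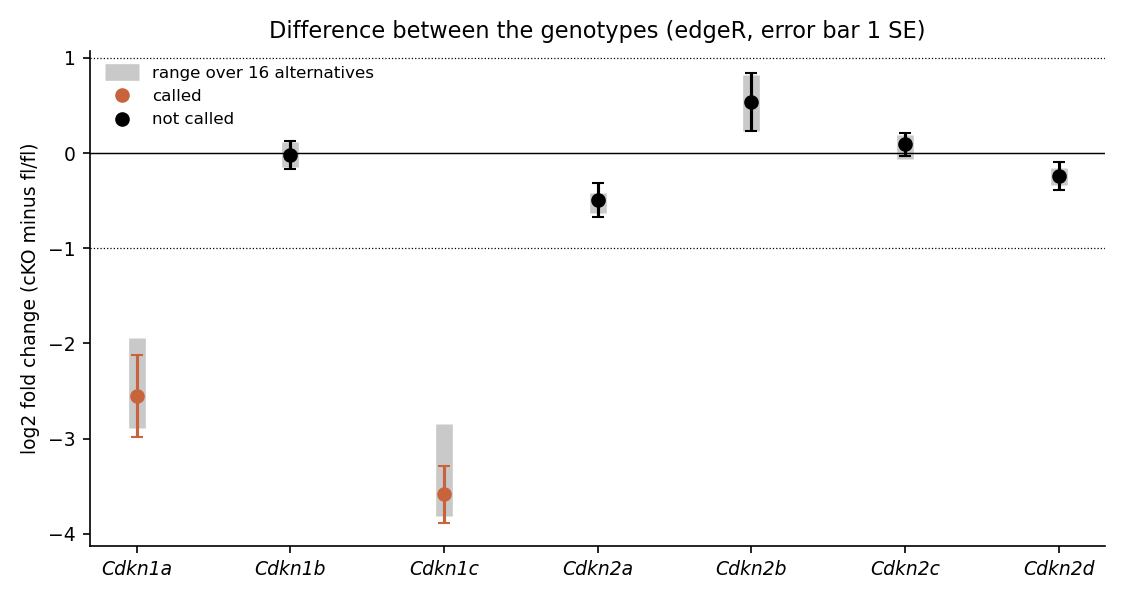
Log2 fold change (NF-YAcKO minus NF-YAfl/fl) of each inhibitor gene, with its standard error as the error bar, the range over 16 alternative settings in grey (2 of them on a log2 TPM scale) and dotted lines at the threshold of 1 in either direction. Cdkn1a at -2.55 and Cdkn1c at -3.58 lie below the lower line in every setting, and the other genes lie between the lines.

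Cdkn2a (chr4:89274473-89294619, minus strand) encodes p16Ink4a and, from another first exon and in another reading frame, p19Arf, which acts on Mdm2 and p53 and not on CDKs. The gene's level was 6.73, 8.13 and 6.79 CPM in NF-YAcKO and 11.2, 11.03 and 8.24 CPM in NF-YAfl/fl. The NF-YAcKO libraries were lower without overlap, though the highest of them came close to NF-YAfl/fl replicate 3, and the gene was not called (log2 fold change -0.49, SE 0.18, FDR = 0.0678). Its 2 transcripts had log2 fold changes of opposite sign. The coding parts of exon 1 are shown since they tell the forms apart, with the start codon in capitals. They lie at chr4:89281986-89282111 in NM_001040654.1 (p16Ink4a) and at chr4:89294334-89294523 in NM_009877.2 (p19Arf).
p16Ink4a, exon 1 coding part: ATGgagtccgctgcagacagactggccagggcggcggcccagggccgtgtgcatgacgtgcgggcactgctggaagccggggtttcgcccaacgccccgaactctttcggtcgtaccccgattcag
p19Arf, exon 1 coding part: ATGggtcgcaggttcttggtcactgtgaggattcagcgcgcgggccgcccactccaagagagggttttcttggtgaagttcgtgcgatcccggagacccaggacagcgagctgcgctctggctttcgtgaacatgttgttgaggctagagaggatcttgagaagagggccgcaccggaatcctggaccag
The former has 126 coding bases, which leave a remainder of 0 after whole codons, and the latter 190, with a remainder of 1. Exon 2 (chr4:89276645-89276985), of 341 bases in both, is therefore read in different frames.

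The p16Ink4a form was at 0.706, 1.57 and 0.929 CPM in NF-YAcKO and 7.35, 5.67 and 4.23 CPM in NF-YAfl/fl, with every NF-YAfl/fl library above the NF-YAcKO ones (log2 fold change -2.42, SE 0.44, FDR = 0.0291). The p19Arf form was at 6.07, 6.69 and 5.96 CPM in NF-YAcKO and 3.87, 5.34 and 3.80 CPM in NF-YAfl/fl, with the NF-YAcKO libraries on the upper side (log2 fold change 0.52, SE 0.25, FDR = 0.267). The p16Ink4a form held 15.6% ± 4.72 of the Cdkn2a TPM in NF-YAcKO and 59.1% ± 7.61 in NF-YAfl/fl (SD, n = 3). The shares were 11.4%, 20.7% and 14.8% in NF-YAcKO against 67.8%, 54.2% and 55.2% in NF-YAfl/fl (p = 0.1 in the two-sided exact permutation test). By expected counts instead of TPM the shares were 14.2% ± 4.38 and 56.4% ± 7.77.
The start of the p16Ink4a form has a CCAAT box on the opposite strand 20 bases downstream of it, in capitals below (chr4:89282155-89282184, minus strand), while the window of the p19Arf start (chr4:89294570-89294869) has none and a GC content of 77.0%.
Cdkn2a after the p16Ink4a start: cacgactgggcgATTGGgcgggcactgaat

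**Figure D3:**
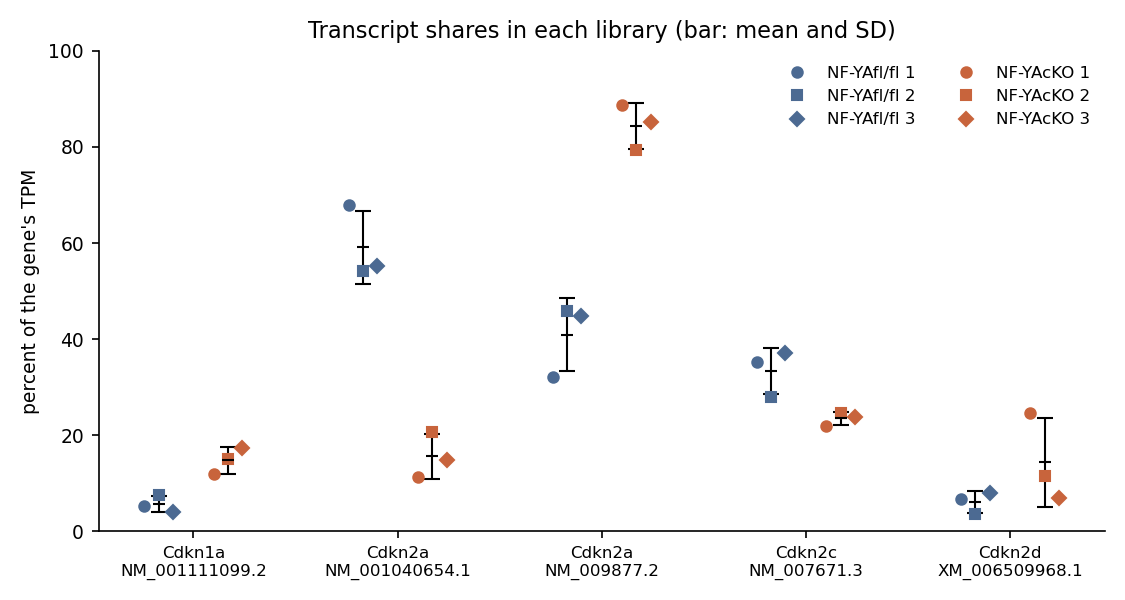
Percent of the gene's TPM taken by a transcript in each library (points, blue for NF-YAfl/fl and orange for NF-YAcKO), with mean and SD over 3 libraries. The Cdkn2a form NM_001040654.1 lies between 54.2% and 67.8% in NF-YAfl/fl and between 11.4% and 20.7% in NF-YAcKO, and the Cdkn1a form NM_001111099.2 and the Cdkn2c form NM_007671.3 also separate by genotype, whereas the Cdkn2d form overlaps.

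Cdkn2b (chr4:89306289-89311032, minus strand), the neighbour of Cdkn2a, encodes p15, a CDK4 and CDK6 inhibitor known as a target of TGF-beta signalling. Its level was 16.9, 18.7 and 16.8 CPM in NF-YAcKO and 13.1, 16.4 and 6.65 CPM in NF-YAfl/fl. The NF-YAcKO libraries were the higher ones without overlap, and the difference was within the test's error (log2 fold change 0.53, SE 0.30, FDR = 0.205). NF-YAfl/fl replicate 3, where Cdkn2b was lowest, was also the library in which Cdkn1a was highest and in which the summed fibro-adipogenic markers were lowest (71.3 TPM) and Myod1 highest (632 TPM). Their part in the result was not tested. Without that library the log2 fold change was 0.24 (FDR = 0.176). The transcript NM_007670.4, the only one in the files, had a log2 fold change of 0.56 (SE 0.34, FDR = 0.406).

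Cdkn2c (chr4:109660876-109666756, minus strand) encodes p18, an Ink4 inhibitor expressed in myogenic cells. Its level was 23.9, 24.3 and 23.5 CPM in NF-YAcKO and 21.5, 20.3 and 25.7 CPM in NF-YAfl/fl, with overlapping genotypes (log2 fold change 0.09, SE 0.12, FDR = 0.586). The transcripts NM_001301368.1 and NM_007671.3, which start at different exons and share the coding exons, had log2 fold changes of 0.24 (FDR = 0.280) and -0.48 (FDR = 0.428). NM_007671.3 held 22.0%, 24.7% and 23.9% of the TPM in NF-YAcKO and 35.2%, 27.9% and 37.1% in NF-YAfl/fl, without overlap (exact permutation test, two-sided, p = 0.1). The difference of the means, 23.5% ± 1.41 against 33.4% ± 4.82, was smaller than that of Cdkn2a.

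Cdkn2d (chr9:21288459-21291421, minus strand) encodes p19Ink4d. Its level was 8.86, 8.76 and 9.21 CPM in NF-YAcKO and 11.97, 9.28 and 10.5 CPM in NF-YAfl/fl. The genotypes lay next to each other without overlap (9.21 and 9.28 CPM at the closest), and the gene was not called (log2 fold change -0.24, SE 0.15, FDR = 0.230). NM_009878.3 had a log2 fold change of -0.34 (FDR = 0.369) and XM_006509968.1, with 14.4% ± 9.26 of the TPM in NF-YAcKO and 6.10% ± 2.30 in NF-YAfl/fl, one of 1.03 (FDR = 0.476).

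At the transcript level 15 of the 17 inhibitor transcripts were tested, out of 45367 over the whole table, and none was called by edgeR with an FDR under 0.01, whereas 1.01% of all tested transcripts were called lower. At an unadjusted p under 0.05 there were 6 of the 15, beside 24.3% of all tested transcripts. With an FDR under 0.05, which 3.91% of the tested transcripts passed on the lower side, 4 inhibitor transcripts were lower: NM_007669.5 of Cdkn1a, NM_009876.4 and XM_006508470.3 of Cdkn1c, and NM_001040654.1 of Cdkn2a. With an FDR under 0.01 DESeq2 called 4 inhibitor transcripts lower, and 6.23% of all tested transcripts. In simulated counts with the real means and spread, 11 of 100 transcripts changed 4-fold and 30 of 100 changed 8-fold were recovered, against 94 and 97 of 100 genes. Transcript differences of this size thus often went uncalled in the simulation. Only these transcripts were changed there, among 41164 tested. Recovery depends on the share of changed transcripts, so these rates do not give the recovery in the real data. The authors' software splits reads shared between forms by likelihood, and the uncertainty of that split is not in these errors.

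Compared per transcript length, Cdkn1a was the most abundant inhibitor gene in both genotypes. Its level was 152 to 356 TPM in NF-YAfl/fl and 34.9 to 46.6 TPM in NF-YAcKO, in each case above every other inhibitor gene. In NF-YAfl/fl the other genes had means between 10.9 and 16.6 TPM, in the order Cdkn2a, Cdkn2c, Cdkn1c, Cdkn1b, Cdkn2b and Cdkn2d, and each overlapped the next in this order. In NF-YAcKO the order was Cdkn2c (15.5 ± 1.02 TPM), Cdkn2b (15.2 ± 0.504), Cdkn1b (13.9 ± 0.507), Cdkn2a (10.3 ± 0.346), Cdkn2d (8.74 ± 0.859) and Cdkn1c (1.23 ± 0.345), and only Cdkn2c and Cdkn2b overlapped as neighbours. Cdkn1c thus went from the middle of the order to the end.

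The summed level of the 7 genes was 109, 96.6 and 112 TPM in NF-YAcKO and 298, 249 and 423 TPM in NF-YAfl/fl (exact permutation test, two-sided, p = 0.1). The Cip/Kip sum was 56.3 ± 6.74 TPM against 268 ± 104 TPM, whereas the Ink4 sum was 49.6 ± 2.06 against 55.4 ± 14.2 TPM and overlapped (p = 0.6 in the exact permutation test). Cdkn1a alone held 38.7% ± 2.70 of the summed level in NF-YAcKO and 71.4% ± 11.5 in NF-YAfl/fl. Without Cdkn1a the other 6 genes summed to 61.7 to 67.0 TPM in NF-YAcKO and 67.7 to 96.1 TPM in NF-YAfl/fl. TPM and CPM did not keep a fixed ratio between libraries. The median TPM for 1 CPM was between 0.318 (NF-YAfl/fl replicate 3) and 0.464 (NF-YAfl/fl replicate 2), and tests used counts.

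**Figure D4:**
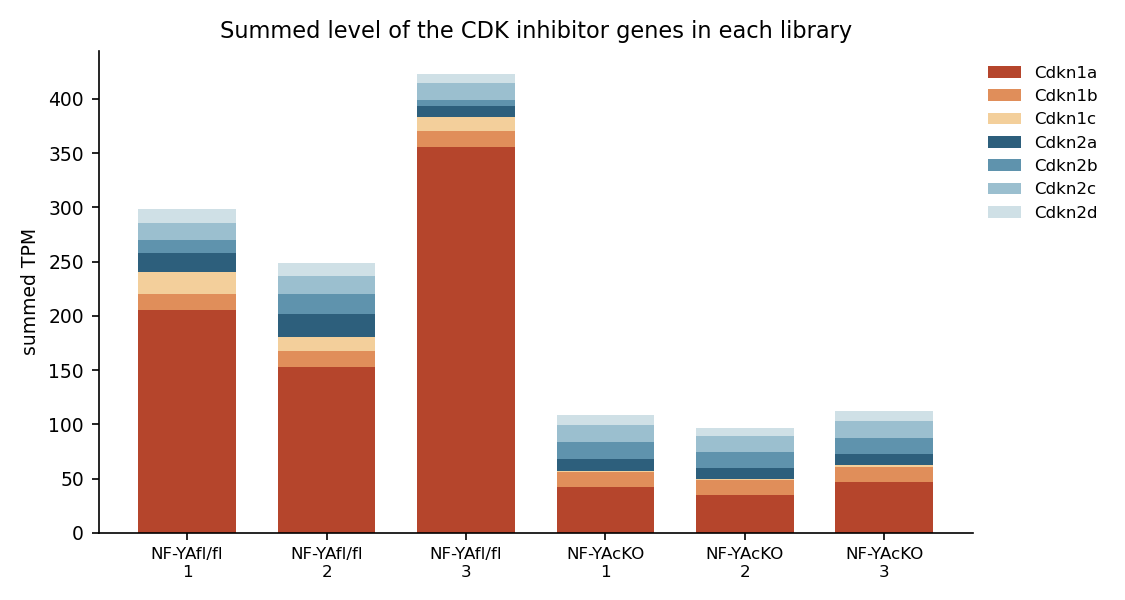
Summed TPM of the 7 inhibitor genes in each library, stacked by gene, with Cip/Kip genes in warm colours at the bottom and Ink4 genes in blue. The NF-YAfl/fl bars reach 249 to 423 TPM, mostly Cdkn1a, and the NF-YAcKO bars reach 96.6 to 112 TPM.

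By CPM, replicates of NF-YAfl/fl varied more than those of NF-YAcKO for every inhibitor gene. By TPM this did not hold for Cdkn1b (SD 0.507 TPM in NF-YAcKO and 0.176 TPM in NF-YAfl/fl) or Cdkn2c (1.02 and 0.907 TPM). The values below are by CPM. The coefficient of variation of Cdkn1a was 62.2% in NF-YAfl/fl and 9.09% in NF-YAcKO, and that of Cdkn2b was 41.2% and 6.04%, while Cdkn1c had 31.5% and 22.7%. The median over all tested genes was 20.7% and 7.97%. The remaining 4 inhibitor genes were between 12.7% and 17.9% in NF-YAfl/fl, below that median.

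The genes most like the called inhibitors over the 6 libraries were sought among 9456 tested genes whose mean reached 10 CPM, by Pearson's r of log2(CPM + 0.5). For Cdkn1a these included Crebbp (r = 0.999) and Slc27a4 (0.999), and for Cdkn1c they were Psd3 (0.9997), Camk2b (0.999) and AI464131 (0.999). An r above 0.95 was reached by 7.93% of the compared genes with Cdkn1a and by 7.75% with Cdkn1c, and the 6 points fall into 2 groups of 3 libraries. Their changes differed in size, as Crebbp, a histone acetyltransferase, had a log2 fold change of -0.55 and Camk2b, a calcium-dependent kinase, one of -4.07.

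The genes next to the inhibitors were examined to see whether a difference was shared along the chromosome. Of 14 neighbouring genes tested, Cdkn2a among them, 2 were called lower and 2 higher, beside 7.67% lower and 4.65% higher among all tested genes. Both flanking genes of Cdkn1a were lower, namely Trp53cor1, the p53-induced noncoding RNA also known as lincRNA-p21, 11853 bases away (2.20 ± 0.355 against 6.92 ± 1.32 CPM, log2 fold change -1.65, FDR = 0.00215), and Rab44, 13406 bases away (0.657 ± 0.337 against 5.93 ± 1.99 CPM, log2 fold change -3.16, FDR = 0.00281). Lockd, a noncoding RNA 3567 bases from Cdkn1b, was higher (6.96 ± 0.453 against 2.48 ± 0.261 CPM, log2 fold change 1.49, FDR = 0.00132) while Cdkn1b was not called. Mtap, a methionine salvage enzyme on the Cdkn2a side of the Ink4 locus, was higher as well (219 ± 18.6 against 88.9 ± 17.9 CPM, log2 fold change 1.298, FDR = 0.00158). Gm12610, which overlaps Cdkn2b and comes within 561 bases of Cdkn2a, was at 0.557 and 0.586 CPM and was not called (FDR = 0.862). Elavl2, on the far side of Cdkn2b, and 2810454H06Rik, beside Cdkn1b, were at under 1 CPM and had FDRs of 0.530 and 0.978. Kcnq1ot1 and Nap1l4 around Cdkn1c (log2 fold change -0.81 and 0.21), Rnf11 and Faf1 around Cdkn2c (-0.78 and 0.19), and Kri1 and Slc44a2 around Cdkn2d (0.46 and -0.04) were not called.

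The partners and regulators of the inhibitors were compared by fixed lists holding 69 genes, of which 62 were tested. Of these, 12 were called higher and 2 lower in NF-YAcKO. Over all tested genes 4.65% were called higher and 7.67% lower, and the median log2 fold change was -0.02. CDKs and cyclins were the list with the most calls, since 6 of its 11 tested genes were called and all 6 were higher (median log2 fold change 1.06). These were Cdk1 (1.28), the cyclins Ccnd1 (1.14), Ccne1 (1.06), Ccne2 (1.49) and Ccna2 (1.27), and Pcna (1.43), the replication clamp that the Cdkn1a protein binds. Pcna was at 227 ± 8.60 CPM in NF-YAcKO and 84.2 ± 12.1 CPM in NF-YAfl/fl (FDR = 0.000429). Cdk4, the Ink4 target, had a log2 fold change of 0.79 (FDR = 0.00169) and Cdk6 one of 0.22 (FDR = 0.343), under the size or the FDR that a call needs. Ccnd3, the D-type cyclin that accumulates in differentiating myoblasts, was at 120 ± 10.03 against 353 ± 178 CPM and just missed the call (-1.56, FDR = 0.0102).

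Genes of the turnover of the inhibitor proteins had 4 called members among 14 tested, all higher (median 0.34). Skp2 (log2 fold change 1.09) and Cks1b (1.20) form the ubiquitin ligase that recognizes p27, Dtl (1.24) directs the ligase that degrades p21 on chromatin, and Cdc20 (1.22) is an activator of the anaphase-promoting complex. Skp2 rose from 19.3 ± 3.60 to 41.2 ± 1.13 CPM (FDR = 0.00218). Among the 3 pocket proteins, through which the inhibitors act, Rb1 was lower (32.1 ± 4.02 against 111 ± 27.0 CPM, log2 fold change -1.79, FDR = 0.00101), whereas Rbl1 (0.94) and Rbl2 (-0.09) were not called.

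None of 9 tested activators of the Cip genes was called by edgeR or DESeq2, and 4 had an unadjusted p under 0.05, beside the 48.7% of all tested genes. The largest differences were those of Foxo1 (-0.93, FDR = 0.0166) and Klf4 (-0.80, FDR = 0.00407), and Trp53, which encodes p53, had 0.57 (FDR = 0.0447). Myod1, the myogenic factor that induces Cdkn1a, was at 567 ± 58.8 CPM in NF-YAcKO and 601 ± 473 CPM in NF-YAfl/fl (-0.08, FDR = 0.908). By library it was at 509, 627 and 565 CPM in NF-YAcKO and at 361, 295 and 1146 CPM in NF-YAfl/fl. Every NF-YAcKO library was thus above NF-YAfl/fl replicates 1 and 2 and below replicate 3. Of 11 repressors of the Ink4 locus, Ezh2, the methyltransferase of Polycomb complex PRC2, was higher (69.9 ± 2.96 against 33.5 ± 3.05 CPM, 1.06, FDR = 0.000662), and Tbx3 had the next largest difference (-0.93, FDR = 0.0353). In the Arf and p53 list 1 of 8 genes was called, Npm1, a nucleolar partner of p19Arf (1557 ± 118 against 612 ± 81.8 CPM, 1.35, FDR = 0.000835), while Mdm2 had a log2 fold change of -0.01. Of 7 tested genes of the imprinted domain around Cdkn1c, Tspan32 was lower at under 1 CPM (-2.55, FDR = 0.00993), and Kcnq1ot1, the noncoding RNA that silences the paternal Cdkn1c allele, was at 361 ± 16.1 against 633 ± 125 CPM (-0.81, FDR = 0.00674), under the fold threshold.

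**Figure D5:**
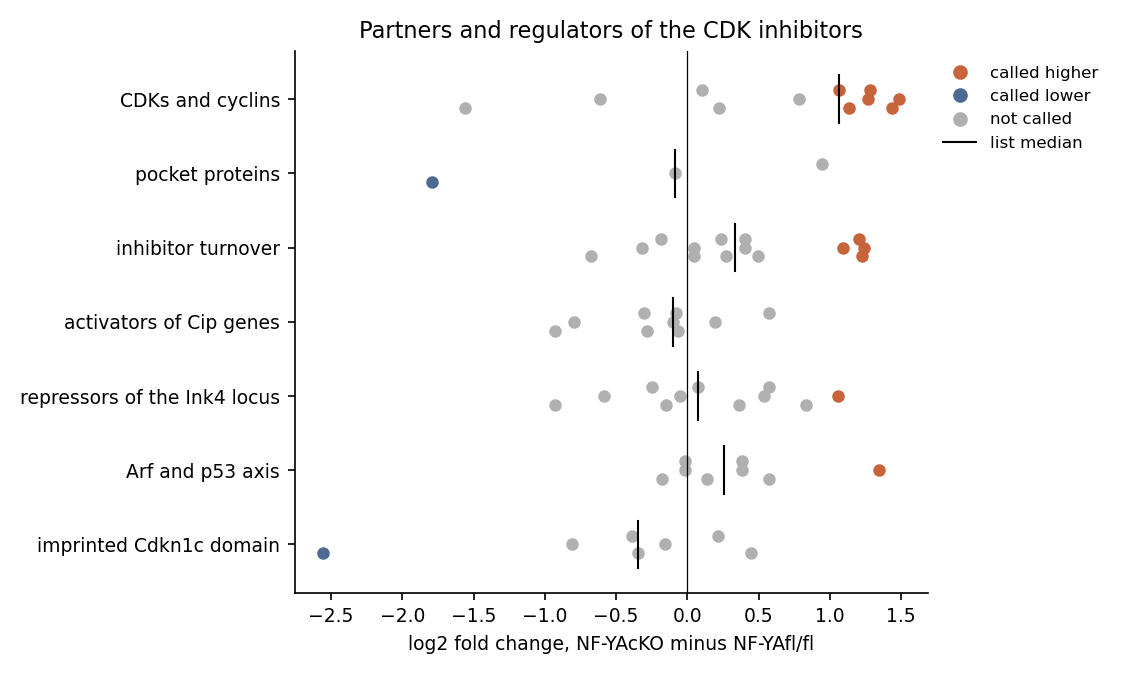
Log2 fold change (NF-YAcKO minus NF-YAfl/fl) of each tested gene in the lists of partners and regulators, with orange for genes called higher, blue for those called lower, grey for those not called and a black line at the list median. CDKs and cyclins have the highest list median, at 1.06, and the imprinted Cdkn1c domain the lowest, at -0.34.

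In these lists the calls depended on the libraries, since leaving out an NF-YAcKO library or NF-YAfl/fl replicate 1 left 3 or 4 genes higher and 1 lower. This was not particular to the lists. Over all tested genes the same settings left 177 to 298 higher and 523 to 819 lower, against 806 and 1331 in the main test.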

How the data were processed

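RNA-seq values of SCs from 3 NF-YAcKO and 3 NF-YAfl/fl mice were used, grouped by the genotype in the labels, which do not describe the replicates further. The authors aligned reads to the mm10 transcriptome with bowtie2, and RSEM gave the estimates. Expected counts were deposited without normalization. The deposited TPM values are scaled to effective length and keep no depth. The deposited percent gives each transcript's part of its gene's TPM. Expected counts were rounded, and features were kept where 2 or more libraries had over 10 counts. Genes and transcripts were each tested over the whole table with edgeR 4.0.16 (TMM, quasi-likelihood, genotype only, Benjamini-Hochberg FDR) in R 4.3.3, and called at an FDR under 0.01 with a change past 1 or -1 on the log2 scale. CPM is relative to the normalized library size. Errors after ± are SDs.

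The fit was tested on simulated data. Other settings tried were DESeq2 (1.42.0), edgeR with the size factors of DESeq2, filterByExpr, no filter, limma 3.58.1 on log2(TPM + 1) and log2(TPM + 0.1), unrounded counts, calls at an FDR under 0.05, edgeR's test against a minimum change of 1 (log2), a block for the replicate number and leaving out each library. A count of 3 corresponds to 0.0730 to 0.111 CPM by library total and covers counting error only. The members and lists were chosen with earlier results of these data known. Named were all 7 genes and their transcripts with a mean of at least 0.1 TPM in a genotype, the called and most different genes of each list, the neighbour that passed the filter on each side, and for each called inhibitor the 3 genes of highest r. Cdk4, Cdk6, Myod1, Mdm2, Rbl1, Rbl2 and Kcnq1ot1 were named for their roles. Start sites and promoter sequences are from RefSeq (GRCm38.p6), exons from GENCODE (GRCm38), the build of the files. The promoter of Cdkn1c was not analysed here. A result of the likeness search is not reported here. Plots were drawn with matplotlib 3.10.9.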

Additional observations from a re-analysis of the deposited data

How the results depend on the processing

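Cdkn1a and Cdkn1c were lower in NF-YAcKO under all 16 alternatives, with log2 fold changes of -2.88 to -1.94 and -3.81 to -2.85. Cdkn1c was called in each, while Cdkn1a lost its call in 5, so that the test against a log2 fold change of 1 called 1 inhibitor gene and leaving out a library called 1 or 2. No inhibitor gene was called higher in any alternative. Inhibitor transcripts called lower numbered 4 with DESeq2, 1 with filterByExpr, 5 with limma on log2(TPM + 1) and 4 with an FDR under 0.05. There were 0 in the main test and 0 whichever library was left out. Among all 45367 tested transcripts, those lower were 2828 with DESeq2, 852 with limma and 1774 with an FDR under 0.05, beside 456 in the main test. With filterByExpr 520 of 40643 were lower, and only 0 to 123 were lower over the whole table with a library left out. The difference in the p16Ink4a share, -43.5 percentage points, was between -46.0 and -39.1 when a library was left out.

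Over the whole table the genes lower and higher were 704 and 231 with limma on log2(TPM + 1), 1067 and 361 on log2(TPM + 0.1), 2025 and 1163 with an FDR under 0.05 and 510 and 97 in the test against a log2 fold change of 1, beside 1331 and 806 in the main test, and between 523 and 1684 lower and 177 and 890 higher with a library left out. Of the list genes, 12 were higher and 2 lower in the main test. The test against a log2 fold change of 1 called 0 in either direction, limma on log2(TPM + 1) called 1 higher and on log2(TPM + 0.1) 2 higher, and leaving out a library gave 3 to 13 higher and 1 to 3 lower. The causes of these changes were not tested.

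The direction of values near 0 was not stable. Cdkn1b had a log2 fold change of 0.010 without a filter and -0.15 to 0.12 over the libraries left out, above 0 without NF-YAfl/fl replicate 3, and Cdkn2c had -0.062 and -0.066 on the 2 TPM scales. The Cdkn1b transcript NM_009875.4 had -0.010 with DESeq2, -0.081 with limma and -0.11 to 0.13 with a library left out, and the Cdkn1c transcript NM_001161624.1 had -1.05 to 0.12. The labels do not say whether the replicate numbers pair the mice. Same-numbered libraries had correlations of 0.258, -0.160 and 0.0606 in their deviations from the group means. Deviations from a mean of 3 libraries constrain one another, so these correlations cannot decide on a pairing. With the replicate block 947 genes were lower and 625 higher, the list genes lower were 1, and both Cdkn1a and Cdkn1c were called. With 3 libraries a genotype, exact permutation tests cannot go below p = 0.1, and the low counts of Cdkn1c in NF-YAcKO limit the split over its forms.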
